A study of Homo sapiens with 9 samples.

Results

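DBH, CHGA, VGF and ISL1 are 1 enzyme gene of noradrenaline synthesis, a pair of secretory granule cargo genes and 1 transcription factor gene of sympathetic neuroblasts. They were chosen by name, as 4 of the 14884 named genes on the array, and all of their probesets were used: 1 each for DBH, CHGA and VGF and 2 for ISL1. The cells were SMS-KCNR, a human line grown with serum and first derived from a neuroblastoma, and their RNA was read on 9 one-channel Affymetrix whole-transcript arrays, 3 per group, after 30 hours of treatment. The groups were simvastatin (5 µM) plus mevalonate (2 mM), simvastatin alone (5 µM), and DMSO, the usual solvent of the drug. All 3 groups share the cell line and the treatment time, and a single line limits what they can stand for. The labels do not say whether the groups with simvastatin received the same amount of DMSO. The design text calls the 3 samples of a group independent without saying whether they were separate cultures, so the p-values measure the spread between these samples, which may be technical.

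Noradrenaline is made from tyrosine in steps catalysed by TH (tyrosine hydroxylase), DDC (aromatic amino acid decarboxylase) and DBH (dopamine beta-hydroxylase), the last of them inside the vesicle. Chromogranin A, encoded by CHGA, and VGF are precursor proteins that are sorted into dense-core granules, cut at basic residues into peptides and released with the transmitter. ISL1 is a LIM-homeodomain transcription factor needed for sympathetic neuron development in the mouse, and in neuroblastoma cells it belongs to the group of factors that hold the noradrenergic state. Simvastatin blocks HMG-CoA reductase, the enzyme that makes mevalonate, the precursor of sterols and of the isoprenoid groups attached to proteins such as small GTPases. The comparison with added mevalonate asks which levels differ when that product is supplied beside the drug.

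The deposited values are log2 probeset values, with array medians between 5.17 and 5.21. The group means of the 8 noradrenergic markers used, DBH, CHGA and ISL1 among them, lay between 8.06 and 10.81, above the median of all probesets (5.19). Most mesenchymal and glial markers measured also lay above that median, so these levels do not tell cell types apart. Among markers of other cells, 13 of 18 mesenchymal, 7 of 12 Schwann and glial, 5 of 12 blood and endothelial and 2 of 10 cholinergic genes were measured. In bulk RNA, fewer cells of a kind and less RNA per cell cannot be told apart.

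To set the genes beside their regulatory sequence, the promoter windows of all 4 members are shown, 5′ to 3′ on the strand of the gene. They are RefSeq sequences of GRCh38.p14, from 250 bases before the start site to 50 bases after it. The windows are chr9:133636113-133636412 for DBH (plus strand), chr14:92922900-92923199 for CHGA (plus), chr7:101165520-101165819 for VGF (minus) and chr5:51383198-51383497 for ISL1 (plus). Capitals mark TGACG or its reverse complement CGTCA, the core of the cAMP response element (CRE), the motif that CREB-family factors bind.
DBH: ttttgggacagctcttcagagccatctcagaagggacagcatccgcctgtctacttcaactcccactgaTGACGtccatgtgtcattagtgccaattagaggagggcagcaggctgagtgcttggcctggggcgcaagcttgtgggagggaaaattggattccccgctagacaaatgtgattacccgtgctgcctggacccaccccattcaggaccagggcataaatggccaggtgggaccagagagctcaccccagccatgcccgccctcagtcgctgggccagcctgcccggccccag
CHGA: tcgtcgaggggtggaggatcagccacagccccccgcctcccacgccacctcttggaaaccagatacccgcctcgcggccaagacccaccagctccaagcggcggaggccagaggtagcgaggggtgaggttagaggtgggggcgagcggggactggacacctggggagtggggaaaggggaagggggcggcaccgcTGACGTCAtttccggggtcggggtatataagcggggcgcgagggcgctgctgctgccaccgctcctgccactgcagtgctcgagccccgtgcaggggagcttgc
VGF: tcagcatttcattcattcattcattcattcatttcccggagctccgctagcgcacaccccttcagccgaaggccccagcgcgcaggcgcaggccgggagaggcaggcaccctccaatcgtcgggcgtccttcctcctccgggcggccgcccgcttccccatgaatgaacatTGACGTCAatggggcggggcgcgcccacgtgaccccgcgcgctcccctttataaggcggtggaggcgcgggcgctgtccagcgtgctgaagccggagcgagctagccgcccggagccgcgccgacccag
ISL1: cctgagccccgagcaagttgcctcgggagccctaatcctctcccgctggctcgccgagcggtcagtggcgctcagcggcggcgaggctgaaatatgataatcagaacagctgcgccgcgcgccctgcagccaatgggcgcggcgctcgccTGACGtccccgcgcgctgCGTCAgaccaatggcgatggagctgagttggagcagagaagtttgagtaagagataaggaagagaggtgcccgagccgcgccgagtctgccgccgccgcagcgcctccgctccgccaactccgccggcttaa
Both granule cargo genes held the full palindrome TGACGTCA, which contains a TGACG on either strand. Its first base was 54 bases before the start in CHGA and 79 bases before it in VGF. Among all 35116 promoter windows of the same length 1.85% held it. DBH held TGACG once, 181 bases before the start. ISL1 held it in 2 places, 100 bases before the start on the sense strand and 82 bases before it on the antisense strand. TGACG on either strand was present in 24.6% of all windows, so its presence in all 4 is a description of these windows and not evidence of binding. Of the other motifs searched on both strands, TATAAA (11.5% of all windows) matched in VGF only, on the antisense strand. GGGCGG (45.0% of all windows) matched once in DBH, once in CHGA and 4 times in VGF, and had no match in ISL1.

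**Figure D1:**
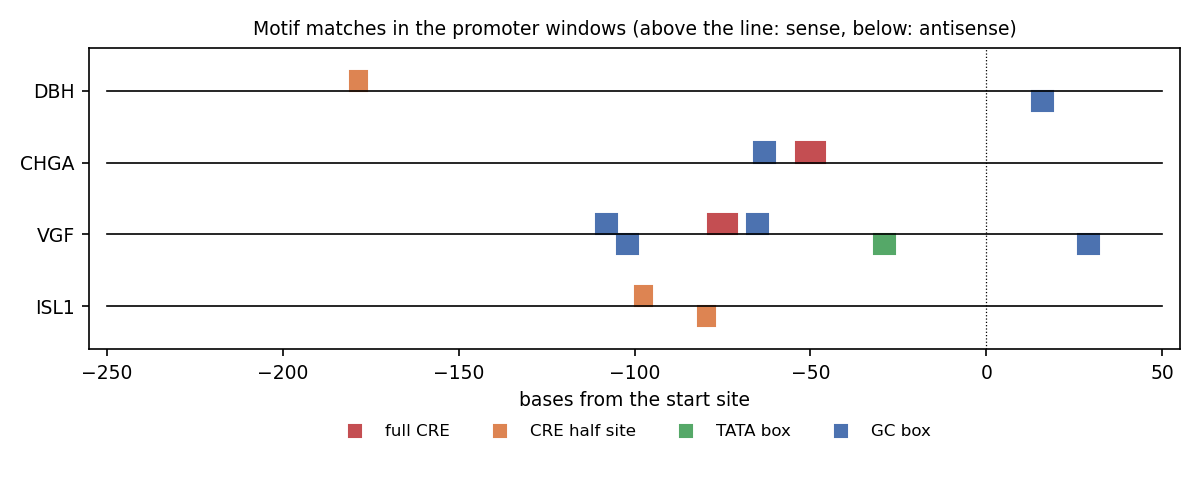
Positions of the motif matches in the promoter windows of DBH, CHGA, VGF and ISL1, in bases from the start site (x axis), with sense matches above each line and antisense matches below it. CHGA and VGF each have 1 full CRE, 54 and 79 bases before the start, whereas DBH and ISL1 have only the TGACG core.

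To determine what simvastatin did to these genes, the simvastatin arrays were compared with the DMSO arrays. The enzyme gene DBH, the granule gene CHGA and the regulator gene ISL1 fell with simvastatin, and the granule gene VGF rose. All 4 changes passed the test (limma, p adjusted by the Benjamini-Hochberg method over 14884 genes, threshold 0.05), in a comparison in which 13.4% of all genes did, 5.98% upward and 7.38% downward. In all 4 genes the groups did not overlap, which held for 28.6% of all genes. The simvastatin changes of these genes were known when the genes were chosen, so the 4 calls are not independent evidence.

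DBH stood at 8.01, 8.11 and 8.06 on the simvastatin arrays, against 9.26, 9.29 and 9.26 on the DMSO arrays. Every simvastatin array lay more than 1 log2 unit below every DMSO array, with a gap of 1.15 between the groups, while arrays of a group differed by less than 0.1. Mean values were 8.06 ± 0.05 with simvastatin and 9.27 ± 0.02 with DMSO (SD, n = 3 each), a 2.32-fold lower level (log2 change -1.21 ± 0.04 SE, limma adjusted p = 4.77e-06). Counted from the strongest fall among all 14884 genes, DBH ranked 10. TH and DDC, the enzymes before it, fell too, TH by 0.25 ± 0.04 (SE) and DDC by 0.26 ± 0.04 on the log2 scale.

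CHGA stood at 9.28, 9.27 and 9.34 with simvastatin, against 10.02, 9.99 and 9.97 with DMSO. The 2 groups were separated by 0.63, several times the spread within either of them. The level was 1.62-fold lower with simvastatin (means 9.30 ± 0.04 with simvastatin and 9.99 ± 0.02 with DMSO, SD, n = 3 each; log2 change -0.70 ± 0.05 SE, limma adjusted p = 4.12e-05). The fall of CHGA ranked 111 among all genes.

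VGF, the other granule cargo gene, moved the opposite way. Its values were 9.10, 8.99 and 9.14 with simvastatin, against 8.01, 7.94 and 8.01 with DMSO. Every simvastatin array lay at least 0.98 above every DMSO array. The level was 2.13-fold higher with simvastatin (means 9.08 ± 0.07 with simvastatin and 7.99 ± 0.04 with DMSO, SD, n = 3 each; log2 change 1.09 ± 0.06 SE, limma adjusted p = 2.45e-05), a rise that ranked 14 among all genes.

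ISL1 had 2 probesets. On the brighter one the values were 9.55, 9.45 and 9.51 with simvastatin, against 10.22, 10.26 and 10.22 with DMSO. The groups lay 0.67 apart and the level was 1.66-fold lower with simvastatin (means 9.50 ± 0.05 with simvastatin and 10.24 ± 0.02 with DMSO, SD, n = 3 each; log2 change -0.74 ± 0.04 SE, limma adjusted p = 2.49e-05). The dimmer probeset, which carries the same gene annotation, read 5.86, 5.72 and 5.98 with simvastatin, against 6.19, 6.31 and 6.10 with DMSO. It also separated the groups, by only 0.12, and its fall was smaller (log2 change -0.35 ± 0.08 SE, limma adjusted p = 0.0183 over all named probesets). With the mean of both probesets the change of ISL1 was -0.54, and the call was kept. Differences between genes in the size of the change were not tested.

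**Figure D2:**
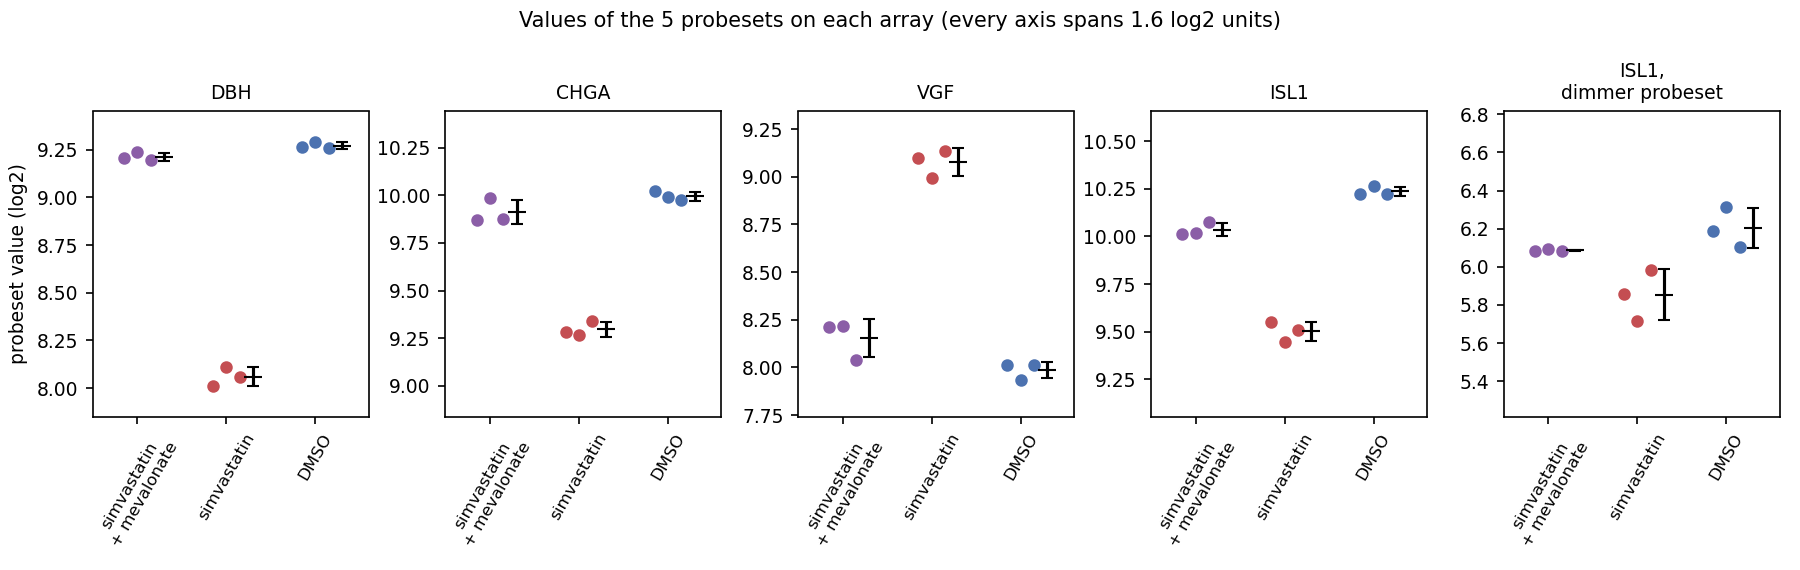
Log2 values of the 5 probesets on each of the 9 arrays (points) with the group mean and SD (black), for simvastatin plus mevalonate, simvastatin and DMSO, 3 arrays each; the y axes differ in position and share 1 scale. Simvastatin arrays lie apart from both other groups in every panel, below them for DBH, CHGA and ISL1 and above them for VGF.

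**Figure D3:**
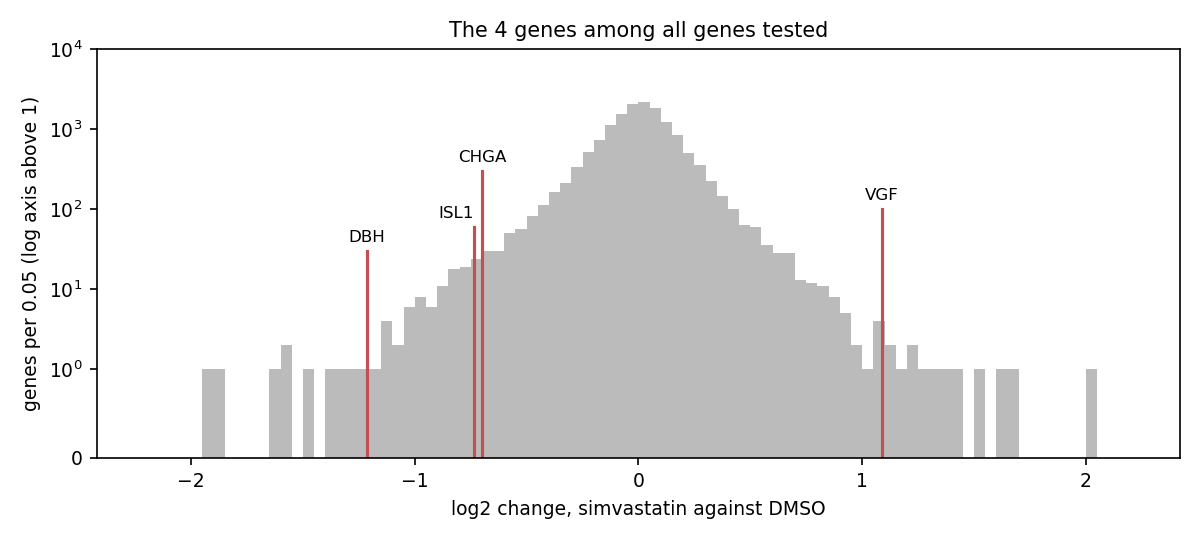
Distribution of the log2 change, simvastatin against DMSO, over all 14884 genes (grey bars, number of genes per 0.05 log2, log axis above 1), with the 4 genes as red lines whose height has no meaning. DBH at -1.21 and VGF at 1.09 lie in the outer tails, and CHGA at -0.70 and ISL1 at -0.74 lie further in.

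Simvastatin plus mevalonate was then compared with simvastatin alone, to see how these levels differed when mevalonate was added. No group received mevalonate without simvastatin, so an effect of mevalonate by itself could not be told apart from replacement of the missing product. The direction turned in all 4 genes: DBH, CHGA and ISL1 rose with mevalonate and VGF fell. All 4 passed the test, against 11.0% of all genes (5.31% upward, 5.72% downward), and in all 4 the groups did not overlap, against 27.3% of all genes. Because the simvastatin arrays also enter the comparison with DMSO, the 2 sets of changes share chance deviations and are not independent of each other.

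With mevalonate added DBH stood at 9.21, 9.24 and 9.19, against 8.01, 8.11 and 8.06 with simvastatin alone. It was 2.23-fold higher (log2 change 1.15 ± 0.04 SE, limma adjusted p = 1.26e-05), and its rise ranked 9 among all genes. CHGA stood at 9.87, 9.99 and 9.88 with mevalonate, against 9.28, 9.27 and 9.34 without it, and was 1.53-fold higher (log2 change 0.62 ± 0.05 SE, limma adjusted p = 0.000112). In both genes every array with mevalonate lay above every array without it.

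VGF stood at 8.21, 8.22 and 8.04 with mevalonate, against 9.10, 8.99 and 9.14 with simvastatin alone. All arrays with mevalonate were lower, by at least 0.78, and the level was 1.89-fold lower (log2 change -0.92 ± 0.06 SE, limma adjusted p = 6.67e-05). Among the brightest probesets of the 4 genes its mevalonate arrays were the most spread (SD 0.10), with replicate 3 the lowest. On the brighter probeset of ISL1 the values were 10.01, 10.02 and 10.08 with mevalonate, against 9.55, 9.45 and 9.51 without it, a 1.45-fold higher level (log2 change 0.53 ± 0.04 SE, limma adjusted p = 0.000155). The dimmer probeset read 6.08, 6.09 and 6.08 with mevalonate, with identical values on replicates 1 and 3, against 5.86, 5.72 and 5.98 with simvastatin alone. Its difference of 0.23 ± 0.08 (SE) did not pass the test (limma adjusted p = 0.0998 over all named probesets).

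The remaining comparison, simvastatin plus mevalonate against DMSO, asks how far the levels stood from those of cells given DMSO. None of the 4 genes passed the test (limma, 0 of 4; 2 of 4 at an unadjusted p under 0.05, VGF and ISL1), where 0.0739% of all genes did (0.0336% upward, 0.0403% downward) and 11.0% of all genes had an unadjusted p under 0.05. DBH differed by -0.06 (95% confidence interval -0.15 to 0.03, adjusted p = 0.636) and CHGA by -0.08 (-0.19 to 0.02, adjusted p = 0.566). For VGF the difference was 0.17 (0.03 to 0.31, unadjusted p = 0.0254, limma adjusted p = 0.388). ISL1 differed most, by -0.20 (-0.30 to -0.10, unadjusted p = 0.00137, limma adjusted p = 0.141), and with a mean-variance trend and robust variance moderation its adjusted p was 0.0106. The groups did not overlap in 3 of the 4 genes, DBH, VGF and ISL1, which held for 16.5% of all genes. CHGA overlapped, because replicate 2 with mevalonate (9.99) lay within the DMSO range.

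Each gene's 3 levels therefore had an order. In DBH, CHGA and ISL1 it was simvastatin lowest, then simvastatin plus mevalonate, then DMSO, and in VGF the same order ran from the highest value downward. In no gene did the last 2 of these groups differ past the threshold. As a share of the log2 difference between simvastatin and DMSO, mevalonate closed 95.1% ± 3.3 for DBH, 88.2% ± 6.2 for CHGA, 84.4% ± 5.4 for VGF and 72.7% ± 5.2 for ISL1 (delta-method SE). These shares reuse the same simvastatin arrays, and differences between them were not tested.

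**Figure D4:**
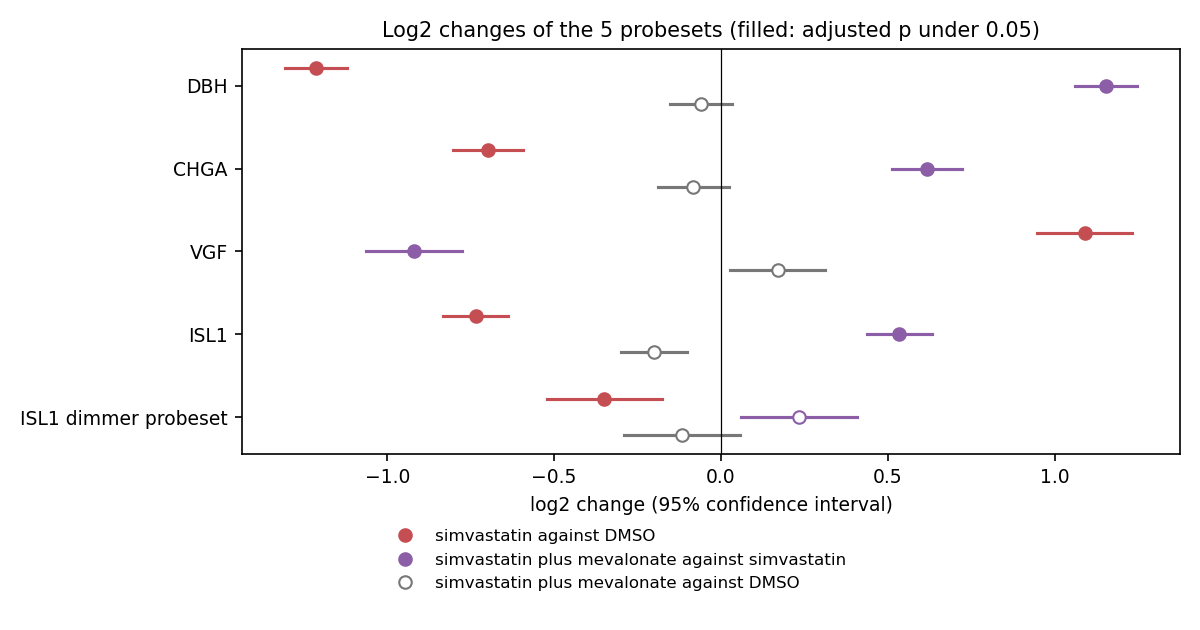
Log2 changes with 95% confidence intervals (x axis) of the 5 probesets in the 3 comparisons, with filled points for an adjusted p under 0.05 and open points otherwise. The 4 genes' changes with simvastatin (red) and with mevalonate added (purple) lie on opposite sides of 0, and their differences between simvastatin plus mevalonate and DMSO (grey) lie between -0.20 and 0.17.

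Genes that make, store, sense or break down noradrenaline were read beside DBH. Of 14 measured genes of catecholamine synthesis, storage and breakdown (of 23 on the list), 4 fell with simvastatin and 0 rose. Over all genes 7.38% were called lower and 5.98% higher. The median log2 change of the list was -0.05, against 0.01 over all genes. The 4 that fell were DBH, TH, DDC and ADRA2A, which encodes an autoreceptor that restrains noradrenaline release. DDC averaged 9.15 ± 0.04 with simvastatin and 9.41 ± 0.02 with DMSO (SD, n = 3 each; limma adjusted p = 0.0034), and TH 10.43 ± 0.05 with simvastatin and 10.68 ± 0.01 with DMSO (adjusted p = 0.00664). ADRA2A changed by -0.39 ± 0.09 (SE, limma adjusted p = 0.0188), a call that ended when DMSO array 1 (adjusted p = 0.0651), simvastatin array 1 (0.0536) or simvastatin array 3 (0.0631) was left out. All 4 rose with mevalonate against simvastatin, ADRA2A by 0.60 ± 0.09, TH by 0.30 ± 0.04 and DDC by 0.25 ± 0.04. Of all genes 5.31% were called higher there. In simvastatin plus mevalonate against DMSO 0 of the 14 were called (limma, 1 at an unadjusted p under 0.05, against 11.0% of all genes).

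Among granins and neuropeptides, which share the granule with CHGA and VGF, most measured genes did not pass the test. Of 28 measured (of 29), 7 fell and 2 rose with simvastatin, with a median change of -0.01. The shares over all genes were 7.38% lower and 5.98% higher. CHGB, the gene of chromogranin B, averaged 8.79 ± 0.05 with simvastatin and 9.20 ± 0.02 with DMSO (SD, n = 3 each) and fell by 0.41 ± 0.05 (SE, limma adjusted p = 0.00159). NMU, encoding the peptide neuromedin U, fell by 0.49 ± 0.04, and SCG2, a granin gene, by 0.22 ± 0.05, where the SCG2 call ended when DMSO array 1 was left out (adjusted p = 0.0529). VIP changed by -0.57 ± 0.08 at values of 3.54 ± 0.13 with simvastatin and 4.11 ± 0.10 with DMSO (SD), below the median of all probesets. Beside VGF only NTS, the neurotensin gene, was called higher (0.58 ± 0.14), also at dim values (means 3.68 with simvastatin and 3.09 with DMSO), and this call was lost without any 1 of the simvastatin or the simvastatin plus mevalonate arrays (adjusted p 0.0511 to 0.0846).

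With mevalonate 5 of these 28 genes were called higher than with simvastatin alone (CHGA, NMU, VIP, SST and SCG2) and 2 lower, VGF and GAL. In that comparison 5.31% of all genes were called higher and 5.72% lower. The call of GAL, the galanin gene, was lost without any single array. Without simvastatin plus mevalonate replicate 2 or 3 the 5 became 3, and with every probeset of the array in the fit they became 2. CHGB did not pass the test in this comparison. It stood at 8.88 ± 0.09 with mevalonate and 8.79 ± 0.05 without it (SD, n = 3 each), a difference of 0.09 (95% confidence interval -0.04 to 0.21, limma adjusted p = 0.383). Against DMSO it remained at -0.32 (-0.44 to -0.19, adjusted p = 0.0782), a difference called with genes below the median of all probesets left out (adjusted p = 0.0314) and with trend and robust moderation (0.00704). Whether CHGA and CHGB differed in their response to mevalonate was not tested.

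Genes that process granule cargo or act in granule release went both ways, with the convertase genes PCSK1 and PCSK2 not among the measured genes of the list. Of 19 measured (of 27), 4 fell and 2 rose with simvastatin, with a median of 0.06, where 7.38% of all genes fell and 5.98% rose. CADPS, a priming factor for dense-core granule exocytosis, averaged 6.68 ± 0.12 with simvastatin and 7.63 ± 0.07 with DMSO (SD, n = 3 each) and was 1.93-fold lower (limma adjusted p = 6.01e-05). RPH3A, the gene of the Rab3 effector rabphilin, was 2.50-fold lower (adjusted p = 0.000493), and SYT1, a calcium sensor of exocytosis, fell by 0.26 ± 0.05 (SE). SYT11, a synaptotagmin that does not bind calcium, rose by 0.67 ± 0.04 (limma adjusted p = 3.43e-05). Both remaining calls were fragile: that of CPD, a carboxypeptidase, held without DMSO replicate 2 and was lost without any other single array (adjusted p up to 0.115), and that of FURIN, a convertase, was lost without 7 of the 9 arrays in turn (up to 0.118).

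With mevalonate CADPS rose by 0.74 ± 0.07, RPH3A by 1.17 ± 0.14 and SYT1 by 0.27 ± 0.05, and SYT11 fell by 1.05 ± 0.04 (SE), together with FURIN, whose call was lost without 8 of the 9 arrays in turn. SYT11 ended below DMSO (-0.38 ± 0.04, limma adjusted p = 0.0222), a call lost without any DMSO array or any simvastatin plus mevalonate array (adjusted p 0.0936 to 0.128).

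Factors and receptors of sympathetic neuroblasts, the company of ISL1, fell in most cases. Of 36 measured (of 40), 23 fell and 1 rose with simvastatin, where 7.38% of all genes fell and 5.98% rose. The median log2 change was -0.31, against 0.01 over all genes. The list held ISL1 itself and was written with results of these data known, so its count is not independent evidence. Without simvastatin replicate 3, 2 rose. TFAP2B, a factor of sympathoadrenal development, averaged 9.60 ± 0.02 with simvastatin and 10.57 ± 0.03 with DMSO (SD, n = 3 each), 1.97-fold lower (limma adjusted p = 4.77e-06), and the homeobox gene MEIS1 was 2.04-fold lower (adjusted p = 1.72e-05). Also lower were the receptor tyrosine kinase gene ALK (-0.82 ± 0.05), the chromatin organiser gene SATB1 (-0.77 ± 0.05), DACH1 (-0.62 ± 0.05), HAND1 (-0.43 ± 0.05), MEIS2 (-0.42 ± 0.05) and TBX20 (-0.37 ± 0.05).

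The same list held other LIM-domain genes and their cofactors, some of which were called and some not. LDB1, the cofactor that binds the LIM domains of ISL1 and of LMO proteins, averaged 9.68 ± 0.03 with simvastatin and 10.14 ± 0.03 with DMSO (SD, n = 3 each; log2 change -0.46 ± 0.04 SE, limma adjusted p = 0.000148). Its paralog LDB2 changed by -0.37 ± 0.06, and the LIM-only genes LMO3 by -0.78 ± 0.05 and LMO4 by -0.43 ± 0.08. LMO1 changed by -0.54 ± 0.12, a call that ended when any of 4 arrays was left out, DMSO 1 or 2 or simvastatin 2 or 3 (adjusted p up to 0.0707). Both LDB genes and LMO1 and LMO3 rose with mevalonate, LDB1 by 0.46 ± 0.04 to a mean of 10.14 ± 0.02 (SD), equal to the DMSO mean to 2 decimals. LMO4 was also called higher with mevalonate (0.28 ± 0.08), a call that ended in 8 of the 9 fits with 1 array left out. Another LIM-only gene, LMO2, and the LIM-homeodomain genes ISL2 and LHX2 did not pass the test with simvastatin, at log2 changes of 0.0023, 0.04 and 0.01, and were named after their values were seen.

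A pair of central noradrenergic factors of the same list, HAND2 and PHOX2A, did not pass the test. HAND2 averaged 10.80 ± 0.04 with simvastatin and 10.81 ± 0.01 with DMSO (SD, n = 3 each), a difference of -0.01 with a 95% confidence interval of -0.10 to 0.08 (limma adjusted p = 0.886). PHOX2A averaged 9.57 ± 0.01 with simvastatin and 9.59 ± 0.04 with DMSO, a difference of -0.02 (-0.13 to 0.09, limma adjusted p = 0.868). GATA3 fell by 0.21 ± 0.04 (SE, adjusted p = 0.0122), a call lost with every probeset of the array in the fit (adjusted p = 0.0545). INSM1, a zinc-finger factor of neuroendocrine cells, rose by 0.61 ± 0.07 (limma adjusted p = 0.000735). With mevalonate 17 of the 36 genes rose and 1, INSM1, fell (2 fell without simvastatin replicate 3), where 5.31% of all genes rose and 5.72% fell. In simvastatin plus mevalonate against DMSO 0 of the 36 were called (limma, 14 at an unadjusted p under 0.05, against 11.0% of all genes). Called there were 6 lower with trend and robust moderation and 3 lower with genes below the median of all probesets left out.

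**Figure D5:**
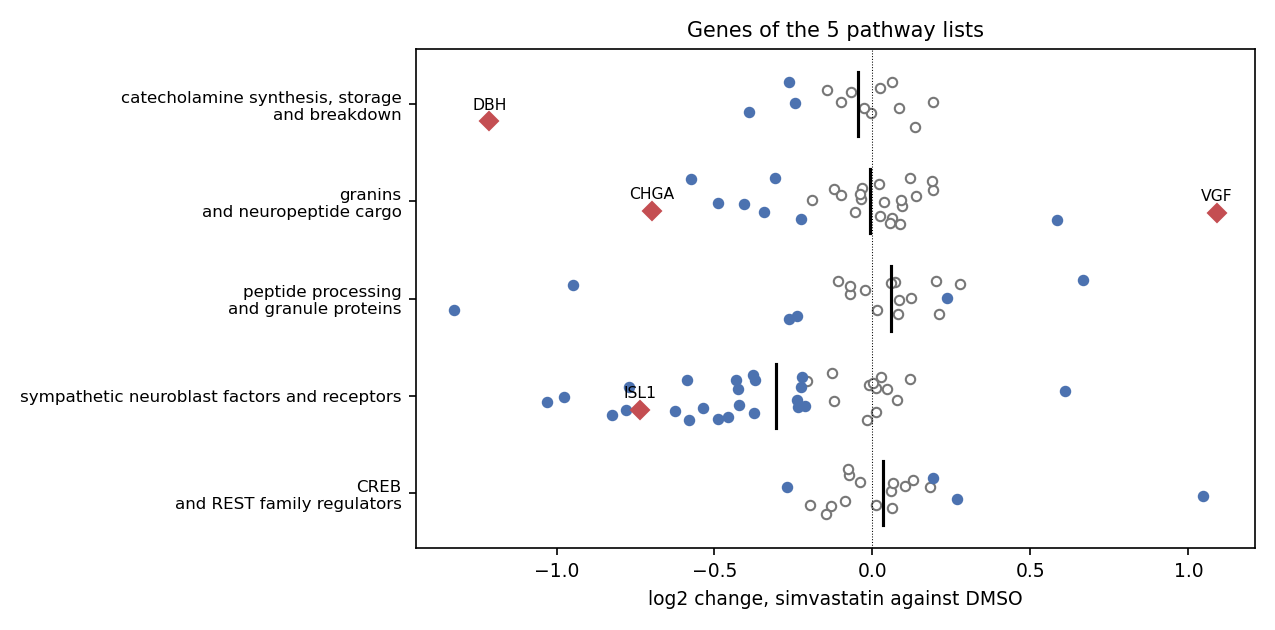
Log2 change, simvastatin against DMSO (x axis), of each measured gene of the 5 pathway lists (rows), with filled blue points for an adjusted p under 0.05, open points otherwise, red diamonds for DBH, CHGA, VGF and ISL1 and a black bar at the list median. The neuroblast factors and receptors lie mostly below 0 (median -0.31), and the other 4 medians lie between -0.05 and 0.06.

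Genes of the CREB family, whose proteins bind the CRE, and of REST, a repressor of neuronal genes, with their cofactors formed a further list. Of 18 measured (of 22), 3 were called higher and 1 lower with simvastatin, with a median of 0.03 (3 lower with trend and robust moderation or without genes below the median of all probesets). Among all genes 5.98% were called higher and 7.38% lower. CREB5, a CREB-related factor gene, was 2.06-fold higher with simvastatin (log2 change 1.05 ± 0.10 SE, limma adjusted p = 0.000258). CREB1 fell by 0.27 ± 0.04 (SE, adjusted p = 0.00484). The other calls were CREM (0.27 ± 0.06), which ended when DMSO array 1 or 2 or simvastatin array 1 or 2 was left out (adjusted p up to 0.0755), and CRTC3 (0.19 ± 0.05), which ended when DMSO array 1 or 3 or simvastatin array 2 or 3 was left out (up to 0.0927). CRTC3 was named after its value was seen. Without DMSO replicate 1 only 1 was higher. With mevalonate against simvastatin 1 of the 18 was called higher and 4 lower, where 5.31% of all genes were called higher and 5.72% lower. CREB5 fell by 1.40 ± 0.10 and CREM by 0.27 ± 0.06, and CREB1 rose by 0.20 ± 0.04 (SE). The calls of CREM and CREB1 were each lost in 4 of the 9 fits with 1 array left out. Any part of these genes in the levels of DBH, CHGA, VGF or ISL1 was not tested.

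Markers of other cells were read beside these changes. With simvastatin 7.38% of all genes were called lower and 5.98% higher. With mevalonate against simvastatin the shares were 5.72% lower and 5.31% higher. Of 13 measured mesenchymal genes 4 fell with simvastatin, the matrix genes LUM (-1.14 ± 0.07), DCN (-0.98 ± 0.06) and FN1 (-0.38 ± 0.06) and the factor gene TWIST1 (-0.49 ± 0.05), and 1 was called higher, SNAI2 (0.20 ± 0.05), named after its value was seen. That count became 0 in 6 of the 9 fits with 1 array left out, those without DMSO 1 or 2, simvastatin 1 or 3, or array 1 or 3 with mevalonate. With mevalonate against simvastatin LUM (0.69 ± 0.07), DCN (0.58 ± 0.06), FN1 (0.34 ± 0.06) and TWIST1 (0.59 ± 0.05) were all called higher, so these 4 moved in the same directions as DBH, CHGA and ISL1 in both comparisons. In simvastatin plus mevalonate against DMSO, LUM differed by -0.46 (limma adjusted p = 0.0638) and DCN by -0.40 (0.0587). Both were called lower there with trend and robust moderation and with genes below the median of all probesets left out. FN1 (-0.04) and TWIST1 (0.10) were not called there as reported. The summed level of the 13 ranged, as log2, over 11.87 to 11.89 with simvastatin plus mevalonate, 11.79 to 11.88 with simvastatin and 11.88 to 11.94 with DMSO. Levels were summed on the linear scale before taking log2, here and for the other marker sets. The brightest genes therefore weigh most, and a sum can stay nearly level while dimmer genes such as DCN change. The 5 blood and endothelial genes summed to 7.82 to 7.88 with simvastatin plus mevalonate, 7.93 to 8.03 with simvastatin and 7.68 to 7.79 with DMSO. CD68, a lysosomal protein gene, was the only call with simvastatin among those 5 (0.48 ± 0.09, limma adjusted p = 0.00854), and without DMSO replicate 1 there were 2. With mevalonate against simvastatin CD68 was called lower (-0.38 ± 0.09, limma adjusted p = 0.0283), a call that ended when simvastatin array 1 or 2 or array 1 or 3 with mevalonate was left out (adjusted p up to 0.0901). The 7 Schwann and glial genes summed to 8.26 to 8.34 with simvastatin plus mevalonate, 8.13 to 8.32 with simvastatin and 8.19 to 8.27 with DMSO, and the 2 cholinergic genes to 6.40 to 6.47 with simvastatin plus mevalonate, 6.37 to 6.43 with simvastatin and 6.38 to 6.50 with DMSO. Of these 9 genes 0 were called with simvastatin (limma, also 0 at an unadjusted p under 0.05, against 25.6% of all genes). The log2 scale of these arrays has no true 0, so absence of a marker could not be read, and the part of other cells in the results was not tested.

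Finally, the genes whose values over the 9 arrays were most like each member were found by the mean absolute difference of values, each centred on the gene's own mean. The values were not scaled, so this difference depends on the size of a gene's changes as well as on their pattern. A gene with large changes, such as DBH, can lie far from one with the same pattern and smaller changes. Symbols starting with LOC, LINC, MIR, SNOR, SCARNA or RNU, among others, were left out of the search. For CHGA these were AURKA, the mitotic kinase Aurora A (0.035 log2 units), MAB21L2 (0.037) and COX20, an assembly factor of cytochrome c oxidase (0.041). For ISL1 they were SPAG5, a spindle protein gene (0.034), LMO3 (0.036) and LIN28B, a repressor of let-7 microRNAs (0.036). For VGF they were ZYX, the gene of the focal adhesion protein zyxin (0.046), LONRF2 (0.080) and MVD, an enzyme of the mevalonate pathway (0.083). DBH had no neighbour as close, with LINGO4 at 0.088, the mitotic kinesin gene KIF20A at 0.090 and LIX1 at 0.105. Between members CHGA and ISL1 differed by 0.054, while DBH differed from CHGA by 0.23 and from ISL1 by 0.24.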

How the data were processed

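Deposited values were used as the authors made them: log2 values, 1 per probeset and array, for 53617 probesets. GCRMA and HOMER are listed, with neither version nor role, per the submitters' processing notes. GCRMA usually aligns arrays to each other, and a shift shared by all genes cannot then be seen. Values identical on 2 or more arrays occurred in 52.1% of probesets. The platform annotation named 16098 probesets, and the probeset with the highest mean stood for each of 14884 genes. In R 4.3.3, limma 3.58.1 (lmFit, eBayes) fitted 3 group means to 9 arrays, with 6 residual and 2.39 prior degrees of freedom and Benjamini-Hochberg adjustment over all genes at 0.05. On simulated data for simvastatin against DMSO with 14884 genes the procedure called 77.2% of genes changed by 0.5 (log2), 98.9% of those changed by 1 and 0.0627% of unchanged genes. The simulation changed far fewer genes than were called in the data and used normal noise, so these shares need not hold here. The number of arrays limits the precision.

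Members and lists were chosen with earlier results of these data known. Named are the 4 members, up to 4 genes per list with the largest change with simvastatin, further genes called in 2 or more comparisons, the noradrenergic markers and the 3 genes most like each member. Exceptions, such as GAL, CPD, CRTC3, SNAI2, LMO2, ISL2 and LHX2, were named after their values were seen. Some genes are not reported here. Alternatives covered probeset choice, features and arrays in the fit, normalization, variance moderation, dim genes, a replicate block and leaving out each array. Same-numbered arrays of different groups did not deviate together (r from -0.0806 to 0.0505 over genes), so the numbers were not taken as pairs.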

Additional observations from a re-analysis of the deposited data

How the results depend on the processing

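For DBH, CHGA, VGF and ISL1, 215 of 216 values under the alternatives kept their side of the threshold. None that was called, as reported or under the alternative, changed direction. The exception was ISL1 in simvastatin plus mevalonate against DMSO, called with trend and robust moderation (-0.20, adjusted p = 0.0106). Leaving out 1 array gave log2 changes with simvastatin of -1.24 to -1.19 for DBH, -0.72 to -0.69 for CHGA, 1.06 to 1.13 for VGF and -0.76 to -0.71 for ISL1. The number of genes changed with simvastatin ran from 1426 to 2479 over the alternatives (1988 as reported), and with mevalonate against simvastatin from 1121 to 2160 (1642). Against these, the 11 genes called in simvastatin plus mevalonate against DMSO became 7 with every probeset in the fit, 0 with only the 2 groups compared, 223 with trend and robust moderation, 105 without genes below the median of all probesets, 0 with the replicate block and 0 to 12 without 1 array, and the cause was not tested. With the replicate block the genes changed were 1576 with simvastatin and 1230 with mevalonate against simvastatin. Of 972 list counts 96 moved by over 1.5 times, none of them above 5 genes as reported. With every probeset of the array in the fit, 13 list genes named or counted in simvastatin against DMSO lost their call (adjusted p 0.0540 to 0.105), ADRA2A, SCG2, SST, NTS, FURIN, CPD, LMO1, GATA3, CREM and CRTC3 among them. No value that was called, as reported or under the alternative, changed direction. Changes of direction between values that were not called in either fit were not counted. VIP and NTS lie below the median of all probesets, where dim signal limits precision.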

Other observations

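The full CRE palindrome found in CHGA and VGF was looked up across the array, a count added after the members' promoters had been read. Of 10749 measured genes with a promoter window, 323 held TGACGTCA. With simvastatin 52 of these (16.1%) were called higher and 30 (9.29%) lower, against 6.53% higher and 8.06% lower over all 10749. Their median log2 change was 0.01, against 0.00 over all of them. With mevalonate against simvastatin, a comparison that shares the simvastatin arrays, 20 (6.19%) were called higher and 45 (13.9%) lower, against 5.74% and 6.11%. VGF is among the 52 and CHGA among the 30, so the motif was held by members that moved in opposite directions. For TGACG on either strand, held by 3759 genes, the shares with simvastatin were 8.49% higher and 8.91% lower.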
